A study of Mus musculus with 2 samples.

Results

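The genes described here are 48 genes of mitosis, listed by name for their known role in mitosis, out of 22910 named genes on the array. They cover entry into mitosis, the spindle checkpoint, the kinetochore, mitotic kinesins, the spindle, chromosome condensation and cytokinesis. Their mRNA was compared between primary macrophages and self-renewing macrophages of C57BL/6 mouse bone marrow, with 1 Agilent 1-dye array for each. The primary macrophages were total bone marrow cells grown on non-coated dishes for 5 days with 100 ng/ml recombinant human M-CSF, the growth factor on which macrophages depend. The self-renewing macrophages came from the same kind of culture, detached and reseeded through passage 4 with the same dose of M-CSF. According to the study's methods, most cells stop dividing at that passage while colonies of dividing macrophages appear. The methods give the name self-renewing macrophages to the cells of these colonies. The labels do not say from which mice, or from how many, each RNA came. The labels name no genetic change in either culture.

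As each cell type had 1 array, no difference could be set against a spread between replicates, and none was tested. A level below is log2 of a probe's intensity relative to the 75th percentile of the gene probes on its array, an intensity of 434 in primary and of 446 in self-renewing macrophages. A level of 0 therefore equals that percentile. A difference is the level in self-renewing macrophages minus that in primary macrophages, so that -1 stands for 2-fold lower. Levels depend on the probe, so levels of different genes were not compared. The scanner software's own error for a difference was 0.20 log2 for the members. This error covers the measurement of a spot and not the spread between cultures. A second measure of error was the agreement of different probes of the same gene, whose differences had an SD of 0.099 log2 over the 24 members with several probes and 0.33 log2 over all 5077 such genes.

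The cultures were checked before the members were read. All 11 macrophage markers were well above background, by the scanner's flag, on both arrays, and 9 of them were higher in self-renewing macrophages, with a median difference of 0.29 log2. Mertk, a receptor for dying cells, was 4.68-fold higher and Fcgr1, an Fc receptor, 3.39-fold lower. The labels call both samples male, but all 4 Y-linked genes on the list were well above background only on the self-renewing array, and Xist, the RNA of the inactive X chromosome, only on the primary array. Of 11 neutrophil markers detected, 10 had a lower level after passage 4. The summed level of the 11, relative to the 75th percentile, was 121 in primary and 6.73 in self-renewing macrophages. Elane differed least of the 10, with levels of 3.05 and 2.58 (-0.47 log2), and made up most of the sum in self-renewing macrophages. S100a8, S100a9, Prtn3, Ltf and Ngp passed the flag on the primary array only. Of 6 markers of blood progenitors, which divide, 5 were detected and 4 of these were lower, with Kit, Flt3 and Gfi1b passing the flag on the primary array only. Kit and Flt3 were dim there, at levels of -3.99 and -4.67, and their differences lay within 2 scanner errors. Cd34 was 6.71-fold lower, Gfi1b at least 6.48-fold lower, and Meis1 higher by 0.77 log2. The summed level of the list was 1.19 on both arrays, and without Meis1 it was 0.549 in primary and 0.0965 in self-renewing macrophages. Detected were also 3 of 5 T and NK cell, 2 of 5 erythroid and 1 of 6 stromal markers. The part of these cells, and of the sex of the donors, in the values below was not tested. Were the arrays exchanged, the sign of every difference below would turn, and this was not tested either. An exchange would leave 1 sample labelled male without Y-linked signal all the same.

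Mitosis is driven by cyclin-dependent kinase 1 with its cyclins, which the phosphatases of the Cdc25 family switch on. Condensin and topoisomerase II compact the chromosomes, kinetochores attach them to the spindle, and the checkpoint holds the anaphase-promoting complex until every kinetochore is attached. The complex then marks securin and cyclin B for destruction, sister chromatids part, and the cell divides. Most of these genes are transcribed late in the cell cycle, so their mRNA in a culture rises with the share of cells in G2 and mitosis. Many of their promoters hold a cell cycle homology region (CHR), bound by the MuvB complex, and CCAAT boxes, bound by NF-Y.

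The promoters were looked at for these elements. As many genes of this kind are known to hold them, their shares are a description and no independent support for the choice of genes. RefSeq windows from 250 bases before to 50 bases after the annotated start (assembly GRCm38.p6) were at hand for 39 of the 48 members, with 42 windows in all because Ect2, Prc1 and Bub3 have more than 1. The letters of the CHR (TTTGAA, either strand) stood in 32 of the 42 windows (76.2%), against 17.9% of all 32851 windows and 13.2% of the windows of the genes tested. CCAAT boxes (CCAAT, either strand) also stood in 32 windows (76.2%), against 37.4% of all windows. Both together were found in 29 windows (69.0%), against 6.95% of all. The CHR variant TTCGAA, which reads the same on both strands, was found in 3 windows (7.14%), against 1.56% of all. The E2F letters TTCCCGCC were in 0 of 42 member windows, against 2.19% of all, and TTTGGCGC in 1, against 0.51%. In 1 window a CHR and a CCAAT box overlapped. The CHR lay within 50 bases of the start in 28 windows (66.7%), against 4.94% of all windows. Counted only among windows that held a CHR, these were 28 of 32 for the members and 1624 of 5878 for all windows.

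Promoters of 9 members are printed from 130 bases before the start to the 30th base from it, 5′ to 3′ on the gene's strand, with CHR, CHR variant and CCAAT letters in capitals. Cdk1 (chr10:69352883-69353042, minus strand) and Ccnb2 (chr9:70421525-70421684, minus strand) are shown as the core mitotic kinase and one of its cyclins. Bub1 (chr2:127831830-127831989, minus strand) and Cdca8 (chr4:124936888-124937047, minus strand) are shown because their differences were among the lowest of the members. Cenpf (chr1:189688057-189688216, minus strand) and Kif11 (chr19:37376252-37376411, plus strand) stand near the middle of the differences. Birc5 (chr11:117849107-117849266, plus strand) was lower in self-renewing than in primary macrophages and has neither element in its window. Bub3 (chr7:131560240-131560399, plus strand) and Pttg1 (chr11:43425952-43426111, minus strand) are the members that were not lower. The 9 were chosen after the values were seen.
Cdk1: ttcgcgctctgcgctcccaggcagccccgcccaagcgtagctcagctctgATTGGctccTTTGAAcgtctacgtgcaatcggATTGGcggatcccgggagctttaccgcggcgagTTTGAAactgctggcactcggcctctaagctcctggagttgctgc
Ccnb2: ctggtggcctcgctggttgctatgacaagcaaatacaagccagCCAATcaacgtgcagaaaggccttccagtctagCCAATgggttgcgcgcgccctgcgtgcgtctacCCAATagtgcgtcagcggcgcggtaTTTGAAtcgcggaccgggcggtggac
Bub1: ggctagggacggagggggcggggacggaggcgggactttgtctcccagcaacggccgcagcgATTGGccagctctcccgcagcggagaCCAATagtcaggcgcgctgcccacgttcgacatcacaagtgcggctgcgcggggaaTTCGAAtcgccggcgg
Cdca8: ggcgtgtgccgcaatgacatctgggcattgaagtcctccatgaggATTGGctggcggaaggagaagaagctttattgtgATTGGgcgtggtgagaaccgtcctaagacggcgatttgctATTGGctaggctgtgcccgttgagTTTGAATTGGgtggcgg
Cenpf: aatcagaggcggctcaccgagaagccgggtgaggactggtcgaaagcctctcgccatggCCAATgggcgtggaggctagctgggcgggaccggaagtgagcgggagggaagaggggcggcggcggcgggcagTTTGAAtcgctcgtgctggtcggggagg
Kif11: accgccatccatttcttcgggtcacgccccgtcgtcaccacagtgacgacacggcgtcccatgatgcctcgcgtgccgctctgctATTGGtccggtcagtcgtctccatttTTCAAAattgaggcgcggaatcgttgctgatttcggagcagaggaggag
Birc5: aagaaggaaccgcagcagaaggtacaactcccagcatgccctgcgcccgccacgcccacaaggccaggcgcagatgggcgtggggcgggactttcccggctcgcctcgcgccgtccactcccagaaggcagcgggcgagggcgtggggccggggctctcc
Bub3: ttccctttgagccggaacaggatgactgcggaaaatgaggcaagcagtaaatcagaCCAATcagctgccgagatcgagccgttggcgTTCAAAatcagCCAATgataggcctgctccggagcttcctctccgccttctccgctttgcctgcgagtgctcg
Pttg1: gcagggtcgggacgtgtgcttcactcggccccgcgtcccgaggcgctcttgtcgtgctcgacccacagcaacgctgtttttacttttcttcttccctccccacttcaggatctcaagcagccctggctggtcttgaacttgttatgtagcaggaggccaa

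In Ccnb2 the CCAAT boxes began 87, 54 and 21 bases before the start, and a CHR began 4 bases after it. Cdk1 had CHR letters 71 and 15 bases before the start and CCAAT letters on the other strand 80 and 48 bases before it. Bub3, whose level hardly differed, had CCAAT boxes 74 and 32 bases before the start and a CHR on the other strand 43 bases before it. The 7 members with neither element in their windows were Birc5, Mad2l1, Melk, Ncaph, Nuf2, Nusap1 and Pttg1, and their differences ran from -0.95 to 0.85 log2. The 29 members with the CHR letters TTTGAA had a median difference of -0.52 log2 and the 10 without them a median of -0.69 log2. Among these 10 was Bub1 (-0.98 log2), which holds the CHR variant TTCGAA. Letters in a window are a description and do not show that a factor binds there. Members whose window was not at hand were Ccna2, Cdc25c, Aurkb, Incenp, Spc24, Kif20a, Tpx2, Smc4 and Foxm1.

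**Figure D1:**
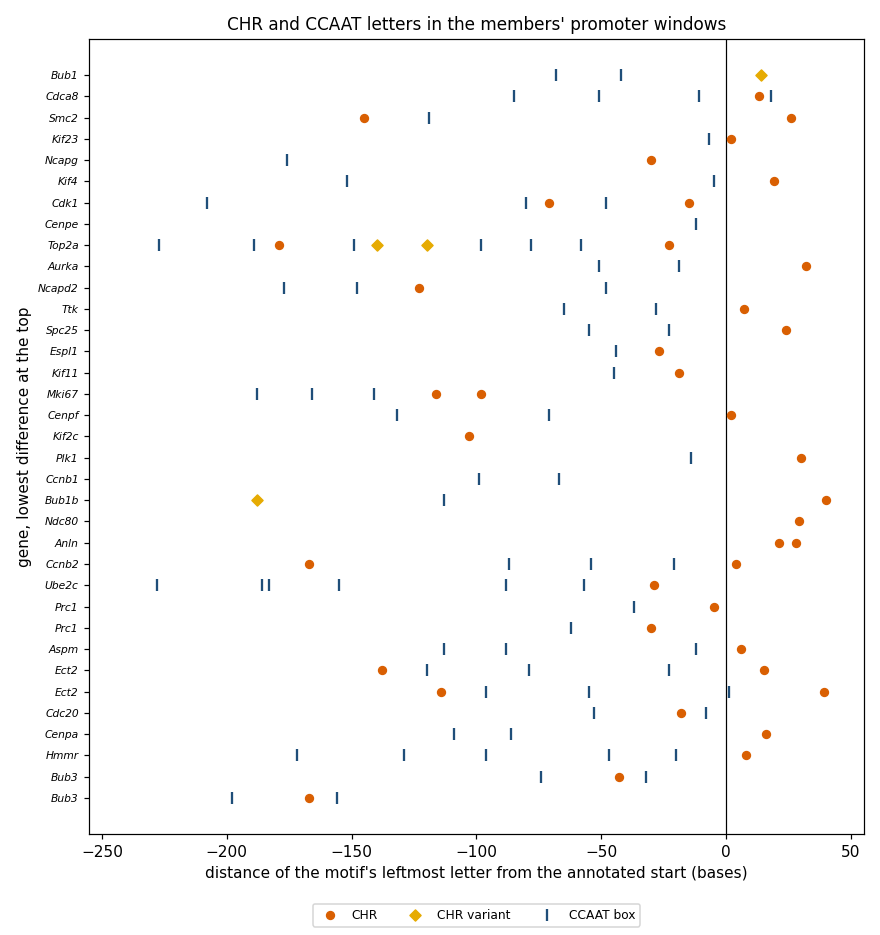
Distance in bases from the annotated start (horizontal axis) of the leftmost letter of each CHR (circles), CHR variant (diamonds) and CCAAT box (bars) in the members' promoter windows that hold any, 1 line a window, ordered by the gene's difference. CHR letters gather close to the start, within 50 bases in 28 of 42 windows. Of the 74 CCAAT boxes 72 lie before the start, as do 250 of the 300 bases of a window. Boxes of genes with more than 1 window are counted in each.

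All 48 members were well above background on both arrays, with each of their 77 probes. In self-renewing macrophages 46 of the 48 were lower than in primary macrophages, a number that was 43 with the authors' scaled values, while 52.0% of all 15515 genes tested were lower. The median difference of the members was -0.56 log2, which is 67.8% of the primary level, against -0.02 log2 over all genes. The members were lower by a moderate amount, the middle 50% of them lying between -0.75 and -0.44 log2. At least 1.5-fold lower were 23 of 48, where 15.1% of all genes were, and at least 2-fold lower was 1 of 48, Aurkb, where 8.38% of all genes were. No member was at least 2-fold higher, against 4.76% of all genes, and 1 was at least 1.5-fold higher, against 10.9%. Differences beyond 2 scanner errors were found for 39 members on the lower side, where 16.9% of all genes lay, and for 1 on the higher side, where 15.0% did. RNA was taken from whole cultures, so that fewer dividing cells and less of these mRNAs in each dividing cell cannot be told apart.

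**Figure D2:**
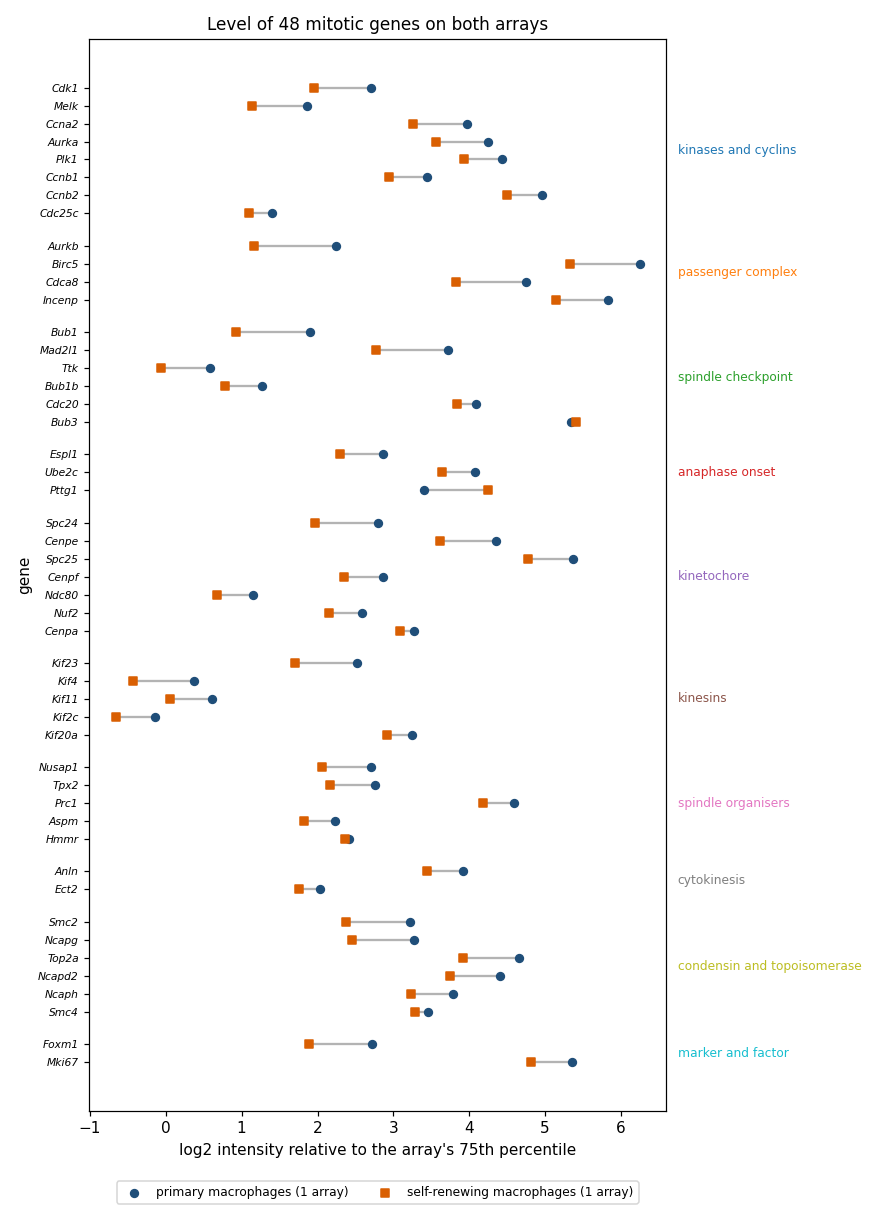
Level of each member (log2 intensity relative to the array's 75th percentile, horizontal axis) in primary macrophages (circles, 1 array) and self-renewing macrophages (squares, 1 array), grouped by role. The square lies left of the circle for 46 of 48 genes, and for Pttg1 and Bub3 it lies on the right; with the authors' scaled values Hmmr, Cenpa and Smc4 would lie on the right too.

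The kinases and cyclins that carry a cell into mitosis were lower for 8 of 8 genes, with a median of -0.60 log2. Cdk1, the master kinase of mitosis, stood at 2.71 in primary and 1.95 in self-renewing macrophages, a difference of -0.75 log2. Its cyclin of S and G2 phase, Ccna2, went from 3.98 to 3.25, and a second probe of it differed more (-1.02 log2 against -0.72). Of the B-type cyclins, which bind the kinase in mitosis itself, Ccnb1 stood at 3.44 and 2.95 and Ccnb2 at 4.97 and 4.50. Ccnb1 had 3 probes, from -0.84 to -0.50 log2, a range that holds the differences of Cdk1 and of the brightest Ccna2 probe. Plk1, the polo kinase that helps to activate the cyclin B kinase, had levels of 4.44 and 3.93. Aurka, the Aurora kinase of centrosomes, had levels of 4.25 and 3.56. Melk, a kinase found in dividing cells, had levels of 1.87 and 1.14. The smallest difference of the group was that of Cdc25c, a phosphatase that activates Cdk1, at 1.40 and 1.10, or -0.30 log2, which is within 2 scanner errors. By the brightest probe of each gene, the difference thus ran from 1.23-fold to 1.69-fold within the group, and none of the 8 was 2-fold lower. The second probe of Ccna2, at -1.02 log2, was more than 2-fold lower.

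The chromosomal passenger complex had the lowest median of the role groups, -0.92 log2, with 4 of 4 genes at least 1.5-fold lower. Aurkb, its kinase, which corrects faulty attachments and guides cytokinesis, stood at 2.24 in primary and 1.17 in self-renewing macrophages. It was 2.11-fold lower (-1.08 log2), and its second probe gave -1.10 log2. Birc5, also called survivin, which carries the complex to centromeres, stood at 6.25 and 5.33, a difference of -0.93 log2 with a second probe at -0.86. Cdca8, also called borealin, stood at 4.75 and 3.83, with probes at -0.92 and -0.75 log2. Incenp, the scaffold that activates the kinase, differed less, with levels of 5.83 and 5.15 and probes at -0.68 and -0.63 log2. All 8 probes of these genes were lower in the self-renewing macrophages.

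Of the spindle checkpoint 5 of 6 genes were lower, with a median of -0.57 log2, and the group was split. Bub1, the kinase that marks centromeres for the checkpoint, was 1.97-fold lower, just short of 2-fold, with levels of 1.90 and 0.93. Mad2l1, which binds the activator of the anaphase-promoting complex and holds it back, was 1.93-fold lower at 3.73 and 2.78, and its second probe gave -1.06 log2. Ttk, the kinase that starts the checkpoint, had levels of 0.59 and -0.06 (-0.65 log2), and its 3 probes lay between -0.88 and -0.65 log2. Bub1b, a subunit of the inhibitory complex, had levels of 1.27 and 0.78. Cdc20, the activator that the checkpoint restrains, differed by only -0.25 log2, from 4.09 to 3.84, and its second probe gave -0.25 as well. Bub3, the partner of Bub1 and Bub1b, was at 5.34 and 5.40, so that its difference of 0.06 log2 was far inside the scanner error. It was positive in each of the 10 alternatives, several of which cannot change a gene with 1 probe, as Bub3 has.

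Anaphase onset held the member that went against the rest. Pttg1, or securin, the inhibitor that keeps separase inactive until anaphase, stood at 3.40 in primary and 4.24 in self-renewing macrophages. It was 1.80-fold higher (0.85 log2), and a second, much dimmer probe gave 0.63 log2, from -2.73 to -2.10. Over the alternatives its difference lay between 0.63 and 1.03 log2. Espl1, the separase that securin inhibits, was lower, at 2.86 and 2.29 (-0.57 log2). Ube2c, the ubiquitin-conjugating enzyme of the anaphase-promoting complex, had levels of 4.08 and 3.64. The inhibitor and the protease it binds therefore differed in opposite directions between the arrays.

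**Figure D3:**
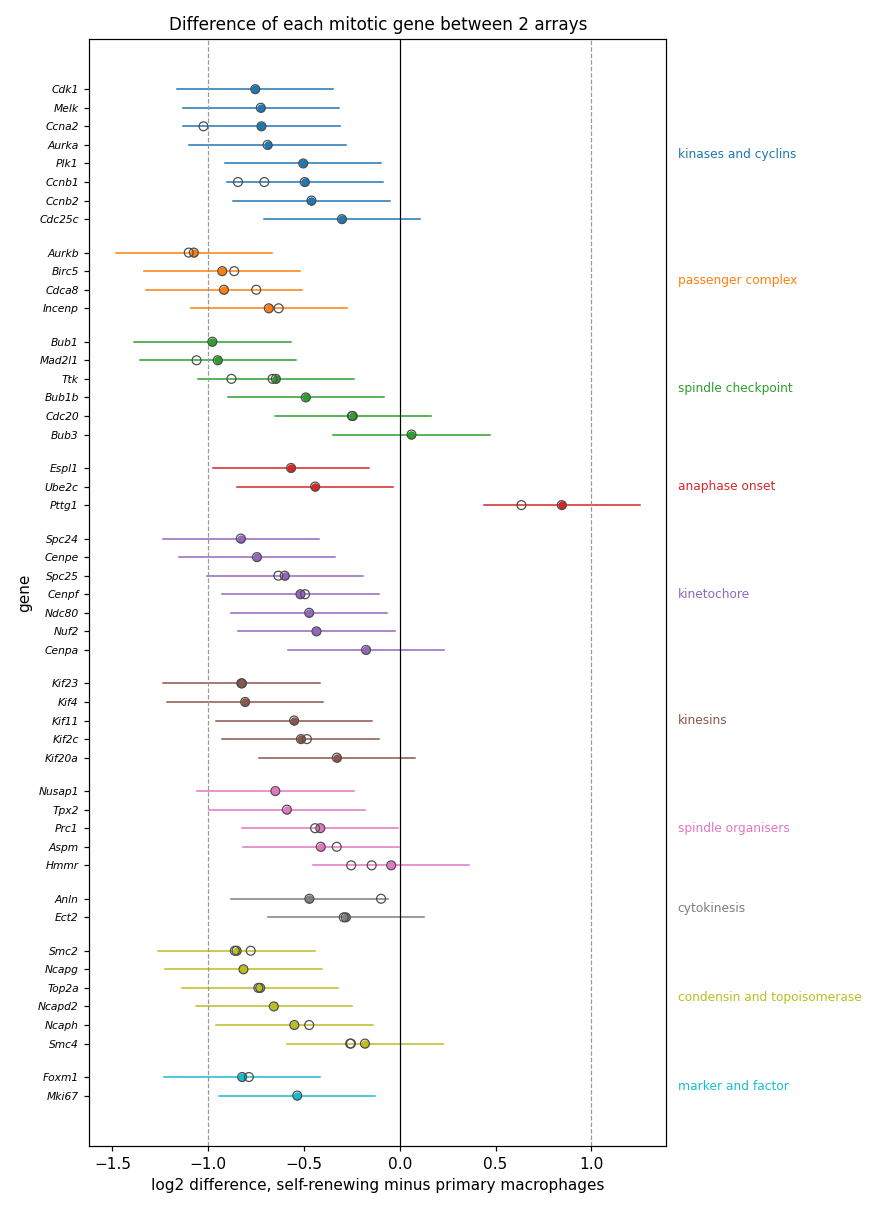
Difference of each member (log2, self-renewing minus primary macrophages, horizontal axis) by role, with filled points for the probe that represents the gene, open circles for all probes of the gene and lines for 2 scanner errors on either side; dashed lines mark 2-fold. Points lie between -1.08 and 0.85 log2, the lines of 8 genes cross 0 and Pttg1 alone lies wholly above it; with the authors' scaled values Hmmr, Cenpa and Smc4 would lie above 0.

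Kinetochore genes were lower for 7 of 7, with a median of -0.52 log2, although with the authors' scaled values Cenpa was at 0.01. The Ndc80 complex, which grips the microtubule, was lower in all 4 subunits. Its Spc24 had levels of 2.79 and 1.96 (-0.83 log2), and its Spc25 levels of 5.37 and 4.77 (-0.60 log2), with a second probe at -0.63. Ndc80 and Nuf2, the other subunits, differed by -0.47 and -0.44 log2. Cenpe, a kinesin that moves chromosomes to the spindle's middle, had levels of 4.36 and 3.61 (-0.75 log2), and Cenpf, a large protein of the outer corona, levels of 2.86 and 2.34. Cenpa, the histone variant that marks the centromere, differed least, with levels of 3.27 and 3.09 and a difference of -0.18 log2 within 2 scanner errors.

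The 5 kinesins, motors that build the spindle and clear the division plane, were all lower, with a median of -0.55 log2. Kif23, a subunit of centralspindlin at the midzone, was 1.77-fold lower at 2.53 and 1.70, and its probes gave -0.83 and -0.82 log2. Kif4, a chromosome motor and the only member on the X chromosome, had levels of 0.37 and -0.44 (-0.81 log2). Kif11, which pushes the spindle poles apart, had levels of 0.60 and 0.05 (-0.55 log2). Kif2c, which takes microtubules apart at kinetochores, had levels of -0.15 and -0.66 with probes at -0.52 and -0.48 log2. Kif20a, which brings the passenger complex to the midzone, had the smallest difference among them (-0.33 log2, from 3.25 to 2.92).

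Spindle organisers and cytokinesis genes showed smaller differences, with medians of -0.41 and -0.38 log2. Nusap1, which bundles microtubules around chromosomes, had levels of 2.71 and 2.06 (-0.65 log2). Tpx2, the activator of Aurora A, had levels of 2.75 and 2.16 (-0.59 log2). Prc1, which cross-links the midzone, and Aspm, a protein of the spindle poles, both differed by about as much, -0.41 log2 each. Hmmr, a spindle assembly factor, differed by -0.05 log2, from 2.41 to 2.37. Its 2 dimmer probes gave -0.15 and -0.25 log2, and the authors' scaled values turned its brightest probe to 0.14. Anln, an organiser of the contractile ring, had levels of 3.92 and 3.45, and its dim second probe gave -0.10 log2 against -0.47. Ect2, the exchange factor that switches on the ring's GTPase, had levels of 2.03 and 1.75 (-0.28 log2).

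The condensin and topoisomerase group was lower for 6 of 6 genes, with a median of -0.69 log2. Top2a, which untangles sister chromatids, had levels of 4.65 and 3.92 and probes at -0.73 and -0.74 log2. The condensin I subunits Ncapg, Ncapd2 and Ncaph had levels of 3.27 and 2.46, of 4.41 and 3.75, and of 3.78 and 3.23, which are differences of -0.82, -0.66 and -0.55 log2. The motor subunits of condensin did not match each other, although they work as a pair. Smc2 was 1.80-fold lower, with levels of 3.22 and 2.37 and 3 probes between -0.86 and -0.78 log2. Smc4 was 1.13-fold lower, with levels of 3.46 and 3.28 and 3 probes between -0.26 and -0.18 log2, and with the authors' scaled values its difference was 0.01. The ranges of the 2 sets of probes did not overlap.

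Mki67, the gene of the proliferation marker Ki-67, which coats mitotic chromosomes, stood at 5.36 in primary and 4.82 in self-renewing macrophages (-0.54 log2), so that the self-renewing macrophages retained 69.0% of the primary level. Foxm1, a transcription factor that activates many of the genes above, was lower, at 2.72 and 1.89 (-0.82 log2), with a second probe at -0.79. Over all 24 members with several probes, the probes of each gene had the same sign, and their ranges had a median of 0.070 and a maximum of 0.37 log2, the latter in Anln.

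A further list of 83 mitotic genes, none of them a member, had a median of -0.63 log2. Lower were 79 of them, where 52.0% of all genes tested were, and at least 2-fold lower were 12, where 8.38% of all genes were. With the authors' scaled values 73 of the 83 were lower. The 5 lowest were Lmnb1 (2.82-fold lower), a lamin of the nuclear envelope, Bora (-1.34 log2), an activator of Aurora A, Pkmyt1 (-1.28), which inhibits Cdk1, Kif15 (-1.27), a spindle kinesin, and Cenph (-1.19), of the inner kinetochore. The inhibitory kinases Wee1 and Pkmyt1 were both at least 2-fold lower, with Wee1 at -1.01 log2, which is a larger difference than that of the Cdk1 they act on. The 12 inner kinetochore CENP genes were all lower, with a median of -0.70 log2. The 6 genes of the Knl1 and Mis12 complexes, which link them to Ndc80, were also all lower, with a median of -0.79 log2. Condensin II, the form of condensin that stays in the nucleus, had a median of -0.17 log2 over 3 subunits, with Ncapg2 at -0.05, Ncaph2 at -0.17 and Ncapd3 at -0.66. The 3 condensin I subunits had a median of -0.66.

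The other 4 genes of that list were higher. Psrc1, a microtubule-associated protein of the spindle, stood at 1.503 in primary and 3.438 in self-renewing macrophages and was 3.82-fold higher. Ckap2, also on spindle microtubules, had levels of 2.86 and 3.68 (0.82 log2), and Gtse1, a G2 and S phase protein of microtubules, levels of 0.59 and 1.18 (0.59 log2). Mad1l1, the checkpoint partner of Mad2l1, was at 0.06 log2. Ckap2, Gtse1, Mad1l1 and the complexes above were picked out after their values were seen.

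Partners of the members that also act outside mitosis had medians closer to 0. The 16 subunits and partners of the anaphase-promoting complex had a median of -0.10 log2, with 11 lower, and with the authors' scaled values the median was 0.09 with 6 lower. Anapc15 (-0.76 log2) and Anapc13 (0.62 log2) were the extremes, and none was 2-fold different. Cohesin and its regulators, which hold sister chromatids together, had a median of -0.13 log2 over 12 genes, which became 0.06 with the authors' scaled values. Its lowest gene was Esco2 (-0.88 log2), which locks cohesin in S phase. The genes of NF-Y, the factor that binds CCAAT boxes, differed by -0.06 to 0.09 log2, with a median that became 0.19 with the authors' scaled values. Of 12 genes of MuvB, DREAM and B-Myb, the complexes that bind the CHR, 8 were lower with a median of -0.39 log2. Mybl2, or B-Myb, which turns MuvB into an activator, was lowest (-1.67 log2, from 2.75 to 1.08), while Rbl2, or p130, the pocket protein of the repressive form, was at -0.96 and -0.27, a difference of 0.69 log2.

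DNA replication genes, the other large group of cell cycle genes, were set beside the mitotic ones. Their median was -1.14 log2 over 45 genes, which is 0.58 log2 below that of the members. This gap lay between 0.47 and 0.58 log2 over the main setting and the 10 alternatives. Scaling by 1 constant per array cannot change it, and the filters on dim probes left it as it was, so most of the alternatives did not put it to a check. At least 2-fold lower were 26 of the 45, against 1 of the 48 members, 12 of the 83 other mitotic genes and 8.38% of all genes tested. Orc1 (-2.02 log2), Uhrf1 (-1.60) and Pcna (-1.52) were the lowest of the replication genes. Whether the lists differ was not tested, since each rests on the same 2 arrays. The 12 housekeeping genes had a median of -0.09 log2, which became 0.09 with the authors' scaled values. Among them the glycolytic enzymes Pgk1 and Gapdh were 2.15-fold and 1.68-fold lower, as large as differences of the members.

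**Figure D4:**
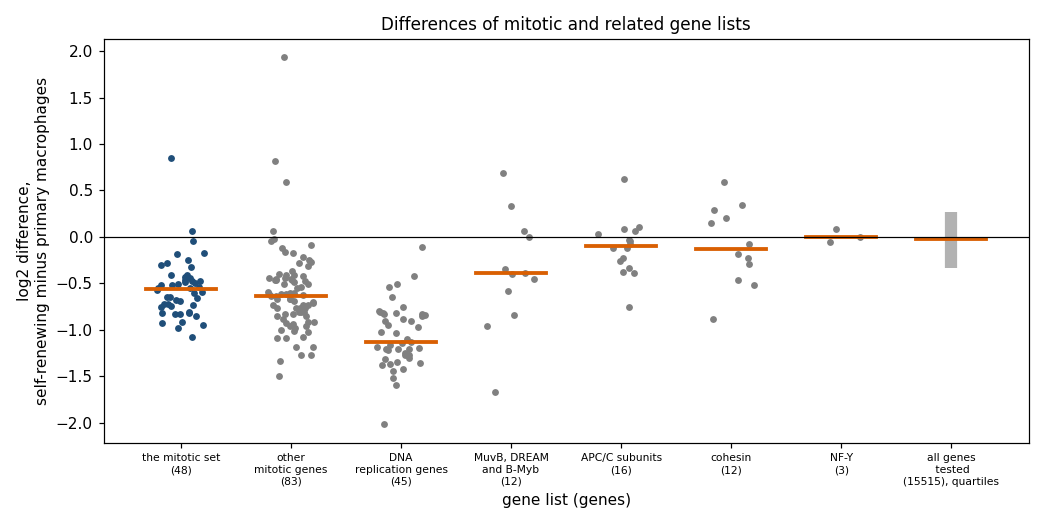
Difference (log2, self-renewing minus primary macrophages, vertical axis) of each gene in the 48 members and 6 other lists, with a horizontal bar for the median and, for all 15515 genes tested, a grey bar from the lower to the upper quartile. The members centre on -0.56 log2, other mitotic genes on -0.63 and DNA replication genes on -1.14, while the APC/C, cohesin and NF-Y genes lie around 0; the authors' scaled values turn the APC/C, cohesin and NF-Y medians to 0.09, 0.06 and 0.19.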

How the data were processed

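Total RNA of both cell types was hybridised to 1-dye Agilent mouse arrays, 1 array each. The authors deposited the scanner output of Feature Extraction 11.5.1.1, with a background-corrected intensity, its error and flags for each spot, and a table of intensity values that equal it times 1 constant per array (1.07 and 1.19). The choice of these constants is not given in the sources used here. The array design follows an earlier assembly than the reference, so no probe coordinates are given.

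Here log2 of the corrected intensity was taken relative to each array's 75th percentile. Control spots and 63 outlier spots per array were left out. Accessions matched 32988 of 56598 probes to 22910 genes. A gene was represented by its brightest probe that was well above background on either array, with a bound where the other array missed it. No spot was saturated. Promoter windows came from RefSeq (GRCm38.p6). The number of arrays limits the precision, and no test was made. The calculation was tested on simulated data with changes larger than that of any member. That test therefore does not cover differences of the size reported here.

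The members, lists and motifs were chosen with earlier results of these data known. Values are given for all members by role, in full for those 2-fold different, the 5 smallest differences and any that were higher. From other lists, genes 2-fold against their list and up to 5 with the largest differences are named. Alternatives were normexp (offset 50, on the median spot signal), other scalings (quantile, 75th percentile or median of detected probes, housekeeping genes, the authors' values), other filters on dim probes, other probe choices and a threshold of 1.5-fold. Python 3.11.15, numpy 2.4.6, pandas 2.3.3, matplotlib 3.10.9, limma 3.58.1 and R 4.3.3 were used. The result of 1 marker list is not reported here.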

Additional observations from a re-analysis of the deposited data

How the results depend on the processing

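With no replicates, the SD between a member's probes, 0.099 log2, served as the measure of a move. The median of the members lay between -0.58 and -0.37 log2 over the main setting and 10 alternatives. The authors' scaled values moved most results, since they put the median of all genes at 0.17 log2 in place of -0.02. With them the medians were -0.37 log2 for the members, -0.45 for other mitotic genes and -0.95 for DNA replication genes, 0 members were 2-fold lower, 1 member (Pttg1, at 1.03 log2) was 2-fold higher, and 5 other mitotic genes were 2-fold lower. Relative to the median of all genes, the members' median was -0.54 log2 there and -0.54 in the main setting. Scaling by 1 constant per array hardly changes such a gap. Under normexp 6 other mitotic genes were 2-fold lower. With the mean over probes 2 members were 2-fold lower, Aurkb and Mad2l1, and with the probe of the smallest difference the DNA replication median was -1.03 log2. At 1.5-fold 23 members were lower, 1 was higher, and 50 other mitotic genes were lower. Of 480 values of single members under the alternatives 423 stayed within this SD and 57 moved further, 48 of these with the authors' scaled values. Many of the 423 could not move. The filters on dim probes left every member as it was, and other probe choices cannot change the 24 members with 1 probe. These counts are therefore no measure of how stable the values are. Of the 48 members, 43 were lower in every setting run, and Pttg1 and Bub3 were higher in each. No paired analysis was possible because there was 1 array for each cell type.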

Other observations

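The promoter letters differed between the lists. The CHR letters TTTGAA stood in 76.2% of the member windows and in 46.1% of 76 windows of the other mitotic genes. They stood in 18.2% of 44 windows of DNA replication genes, against 17.9% of all windows. Of 18 windows of genes of the anaphase-promoting complex 11.1% held them. The E2F letters TTCCCGCC stood in 18.2% of the replication windows and 7.89% of the other mitotic windows, against 2.19% of all windows. They stood in 0 of 42 member windows and in 0 of 18 windows of the anaphase-promoting complex. CCAAT boxes were found in 54.5% of the replication windows, 64.5% of the other mitotic windows and 38.9% of those of the anaphase-promoting complex, against 37.4% of all windows. No test was made of these shares, and they rest on exact letters within 300 bases.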
